A study of Mus musculus with 8 samples.

Results

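The genes described here are members of the Bcl2 family, which decide whether the mitochondria of a cell trigger apoptosis, together with the death receptor Fas. They were chosen by symbol, not by their values, and 10 of 55276 gene symbols in the tables were members: the anti-apoptotic Bcl2, Bcl2l1 and Mcl1, the effectors Bax and Bak1, the BH3-only genes Bid, Bcl2l11, Bbc3 and Pmaip1, and Fas. Transcripts were measured by RNA sequencing in fibro-adipogenic progenitors (FAPs), the interstitial mesenchymal progenitors of skeletal muscle, which expand after injury and are cleared again as the muscle regenerates. Survival of FAPs lacking the zinc finger transcription factor Osr1 is one of the questions of the study.

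There were 4 groups of 2 libraries each. Control cells came from mice of genotype Osr1 flox/+ CAGG Cre+ and Osr1cKO cells from mice of genotype Osr1 flox/flox CAGG Cre+, at 3 and at 7 days post injury (dpi). Adult mice of both genotypes received tamoxifen from the time of injury, which was made by piercing the tibialis anterior with a frozen needle. The CAGG-CreER driver is active in many tissues, so deletion was not confined to FAPs. The recombined allele carries eGFP in place of Osr1, and GFP+ cells were sorted, so that the control cells had lost 1 copy of Osr1 and the Osr1cKO cells were meant to have lost both. Each library of 3 dpi was made from a single mouse and each library of 7 dpi from several mice pooled together, so day and pooling cannot be told apart. The same holds for the sequencing instrument if it changed between the days.

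In the intrinsic pathway of apoptosis, Bax and Bak1 form pores in the outer mitochondrial membrane that release cytochrome c. Bcl2, Bcl2l1 (Bcl-xL) and Mcl1 hold them in check, and BH3-only proteins, which respond to stress, DNA damage or loss of survival factors, block these guardians or activate the effectors directly. Fas starts the extrinsic pathway at the cell surface, and Bid links it to the mitochondria once caspase-8 has cleaved it. Much of the control of these proteins lies in cleavage, binding and turnover, which transcript levels do not show.

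Values are transcript abundances in TPM, a share of all transcripts corrected for gene length. Differences are on the scale of log2(TPM + 1), which understates changes of low genes, after a common rescaling of the libraries, and were tested with limma over all genes. A call between 2 groups required a fold change over 1.2. In addition, genes at 3 dpi needed an unadjusted p under 0.05, and all other comparisons needed a p under 0.1 after Benjamini-Hochberg adjustment. These thresholds are those of the study's methods for the genotype comparisons, and the second was applied here to the days as well. The study tested with DESeq2, not with limma, so its own calls can differ from those given here. Depth was between 46401579 and 51096382 recovered fragments per library at 3 dpi and between 36516539 and 41163466 at 7 dpi. The least covered member in any library was Bid, with 122 fragments.

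Osr1 itself read 105 and 91.0 TPM in the control libraries at 3 dpi against 70.7 and 71.9 in Osr1cKO. At 7 dpi it read 67.6 and 71.6 TPM in control and 64.4 and 60.8 in Osr1cKO. The groups did not overlap on either day, and the difference was -0.46 ± 0.13 (SE) at 3 dpi, which was called, and -0.29 ± 0.08 at 7 dpi, which was not (adjusted p = 0.306, limma). A value for the whole gene does not separate deleted from retained exons, so it checks the labels only in part. The paper looked at the exons in its sequencing data and reports that the floxed exon was efficiently deleted. All 8 FAP markers, among them Pdgfra and Ly6a, were above 1 TPM in every library. They summed to between 24020 and 42690 TPM, of which Col1a1 alone made 12400 to 28080 TPM. At 3 dpi Ly6a read 5407 and 4232 TPM in control against 3058 and 2020 in Osr1cKO. Of the 8 differences between the genotypes on that day, 4 were negative and 1 was called, lower in Osr1cKO. The sums were 28.6 to 101 TPM for 10 macrophage markers and 2.42 to 19.4 TPM for 6 endothelial markers. At 3 dpi the endothelial sums were 19.4 and 5.04 TPM in control against 2.42 and 2.74 in Osr1cKO. Kdr made 16.8 TPM of the 19.4. All 5 endothelial markers tested on that day had negative differences, and none was called. The part of these marker differences in the results for the members was not tested.

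The order of the members was much the same in the 4 groups. Mcl1 had the highest level, with a mean of 381 ± 44.6 TPM (SD, n = 2) in control and 386 ± 23.6 in Osr1cKO at 3 dpi, and 472 ± 22.8 and 504 ± 7.39 at 7 dpi. Bak1 had rank 2 and Bax rank 3 in every group, without overlap between neighbours. Bcl2 was last in every group, at 2.0 to 3.86 TPM over the 8 libraries, although at 7 dpi in control its libraries overlapped with those of Bid. The order changed in between. Bcl2l1 had rank 4 in control at 3 dpi, where its libraries overlapped with those of Fas, and rank 8 in both genotypes at 7 dpi. In control at 3 dpi Bbc3 overlapped with Bcl2l11 and Pmaip1 with Bid. In Osr1cKO at 3 dpi Bbc3, Bcl2l11 and Pmaip1 formed a row of neighbours that overlapped, and in control at 7 dpi Pmaip1 overlapped with Bbc3.

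**Figure D1:**
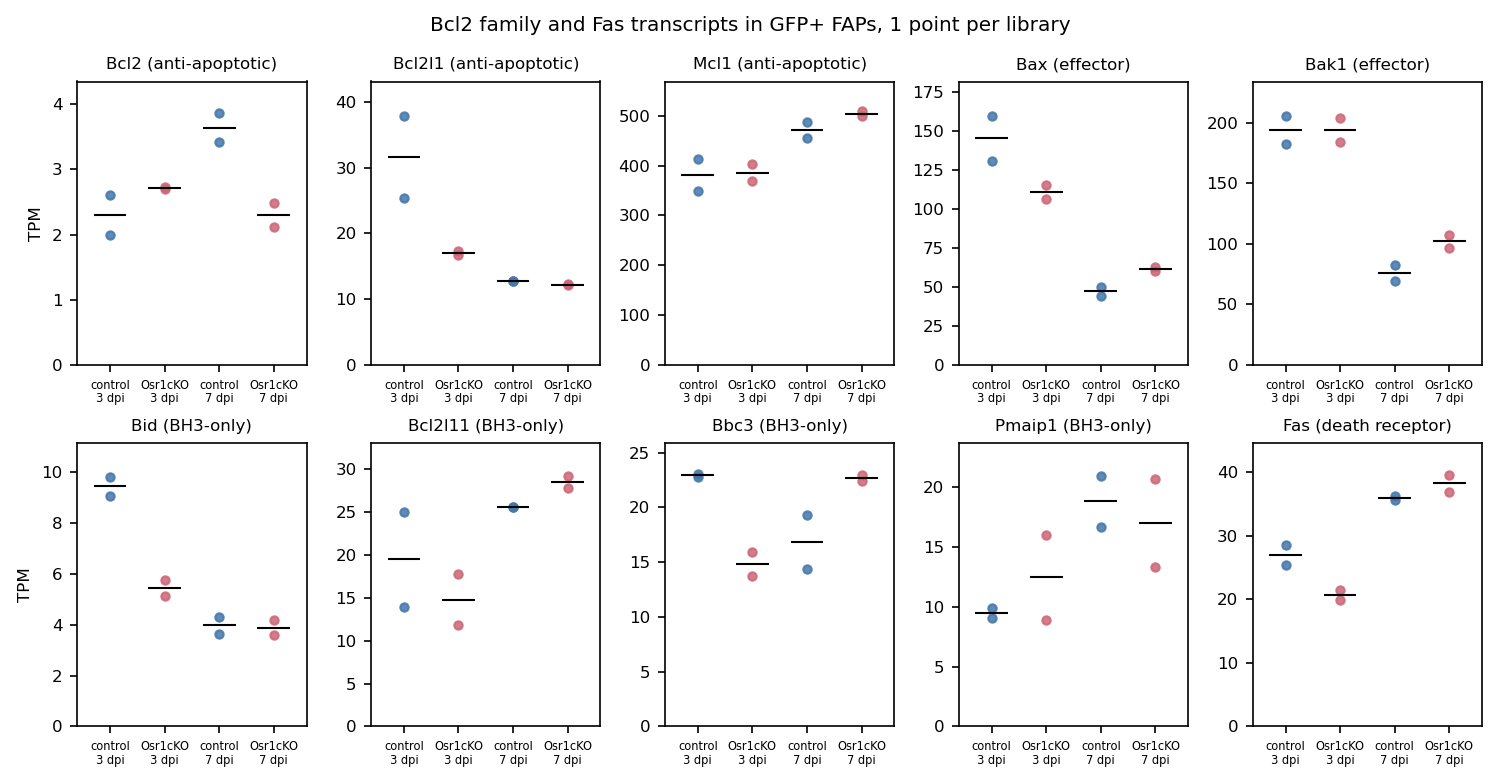
TPM (vertical axes, from 0) of each of the 10 genes in the 8 libraries by genotype and day. Points are libraries and lines are means of 2 libraries. Bax and Bak1 lay between 106 and 206 TPM in all libraries at 3 dpi and between 44.4 and 107 TPM at 7 dpi.

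At 3 dpi, 5 of the 10 genes were lower in Osr1cKO and none was higher. They were Bcl2l1, Bid, Bbc3, Bax and Fas, so that 1 guardian of the mitochondria, 1 effector, 2 BH3-only genes and the death receptor moved the same way. For comparison, 4.13% of the 15699 genes tested were called lower by this rule and 2.24% higher. The median difference of the 10 genes was -0.37 against 0.00 over all genes. None of the 5 passed after Benjamini-Hochberg adjustment in limma (adjusted p from 0.764 to 0.782), and no gene of the whole table did at an adjusted p under 0.1. The 5 calls became 2 without the Osr1cKO library of replicate 1 and 1 without that of replicate 2, where the remaining library was assumed to vary like the controls. The level of interferon-stimulated genes moved with genotype at 3 dpi: 8 reference genes summed to 4945 and 3877 TPM in control against 2500 and 667 in Osr1cKO, and the part of this difference in the results for the members was not tested.

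At 7 dpi, none of the 10 genes passed the adjusted threshold for genotype in limma on log2(TPM + 1), where 0.0664% of the 16578 genes tested did. In limma-voom on the recovered fragments Bcl2 passed, lower in Osr1cKO, beside 215 of 16357 genes (1.31%). By the looser rule of 3 dpi (unadjusted p under 0.05), Bcl2 was the only member to pass, with a lower level in Osr1cKO, and 11.1% of all genes passed. In the deposited TPM, Bax, Bak1, Bbc3, Mcl1, Bcl2l11 and Fas had higher values in both Osr1cKO libraries than in either control library. Bcl2 and Bcl2l1 had lower values in both. None of these genes passed in limma on log2(TPM + 1). The share of all genes separated in this way was not counted, so the separation describes these values only. Markers of other cell types also moved with genotype on that day. Macrophage markers summed to 60.7 and 63.5 TPM in control against 80.6 and 101 in Osr1cKO (10 of 10 differences positive), endothelial markers to 8.80 and 9.45 against 13.5 and 14.1 TPM (6 of 6 positive), and myofiber markers to 55.6 and 54.6 against 34.5 and 38.0 TPM (5 of 6 negative). Of the FAP markers, 7 of 8 differences were negative (median -0.15), as were 6 of 6 of the muscle stem cell markers. The control libraries of 7 dpi also differed from each other for some markers. Replicate 1 had Myog at 14.1 TPM and the pericyte marker Rgs5 at 63.6, against 1.94 and 12.3 in replicate 2. No marker of these lists was called, none was at 0 in every library, and their part in the differences at 7 dpi was not tested. The median difference was -0.05 against 0.00 over all genes. Rescaling bears on these values: in the deposited TPM the median over all genes was 0.11 at 7 dpi, and the small differences of Mcl1 and Fas changed sign between the scales.

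**Figure D2:**
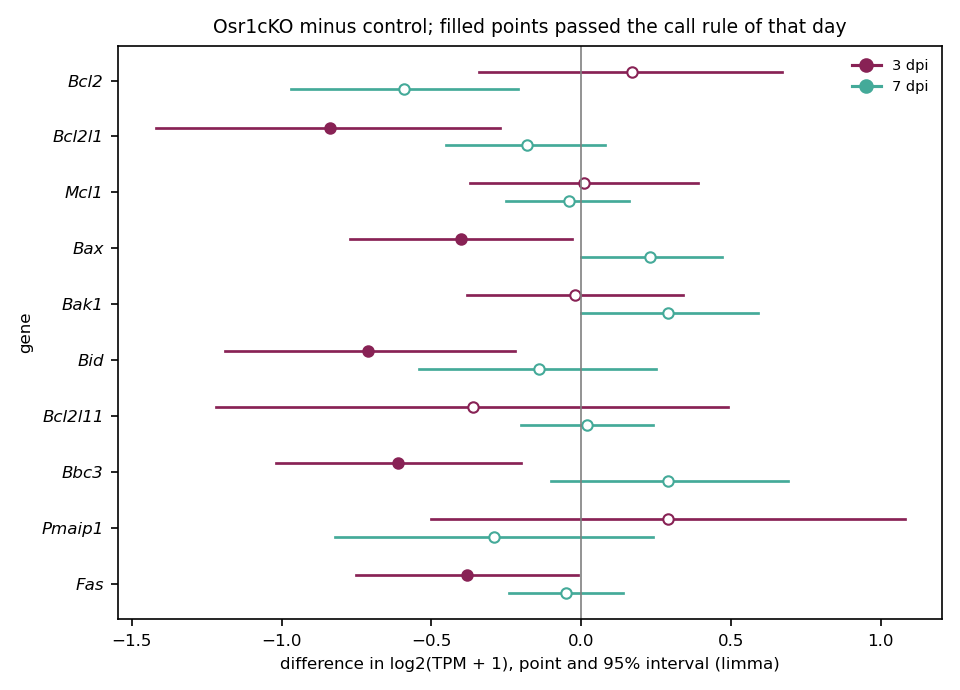
Difference of Osr1cKO minus control in log2(TPM + 1) (horizontal axis) for each gene (vertical axis) at 3 and at 7 dpi, with the 95% interval from limma. Filled points passed the call rule of that day, which 5 genes did at 3 dpi, all to the left of 0, and none did at 7 dpi.

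Over time some members rose and others fell, as did the genes tested as a whole. In control cells 8 of 10 genes differed between 7 and 3 dpi: Bcl2, Mcl1, Pmaip1 and Fas rose, and Bcl2l1, Bax, Bak1 and Bid fell. Among the 17371 genes tested, 29.2% were called higher at 7 dpi and 25.6% lower. In Osr1cKO cells 8 of 10 differed as well: Mcl1, Bcl2l11, Bbc3 and Fas rose, and Bcl2l1, Bax, Bak1 and Bid fell, beside 26.8% of genes higher and 23.0% lower. The median over the 10 genes was 0.08 in control and 0.12 in Osr1cKO, against 0.06 and 0.08 over all genes. The count in Osr1cKO was 5 without either 3 dpi library and 3 without replicate 1 at 7 dpi. Summed macrophage markers were also higher at 7 dpi (60.7 to 101 TPM against 28.6 to 33.8 at 3 dpi), as were myofiber markers (34.5 to 55.6 TPM against 6.58 to 12.5). The same held for pericyte and smooth muscle markers (35.8 to 101 TPM against 13.2 to 25.2). Erythroid markers (11.7 to 54.2 TPM against 0.0 to 1.47) and neutrophil markers (3.22 to 17.2 TPM against 1.53 to 3.07) were higher too. Endothelial markers in control were at 19.4 and 5.04 TPM at 3 dpi, around the 8.80 and 9.45 of 7 dpi, and in Osr1cKO they were higher at 7 dpi. The part of these markers in the day differences was not tested. In these sorted populations fewer cells of a type and less RNA per cell cannot be told apart.

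**Figure D3:**
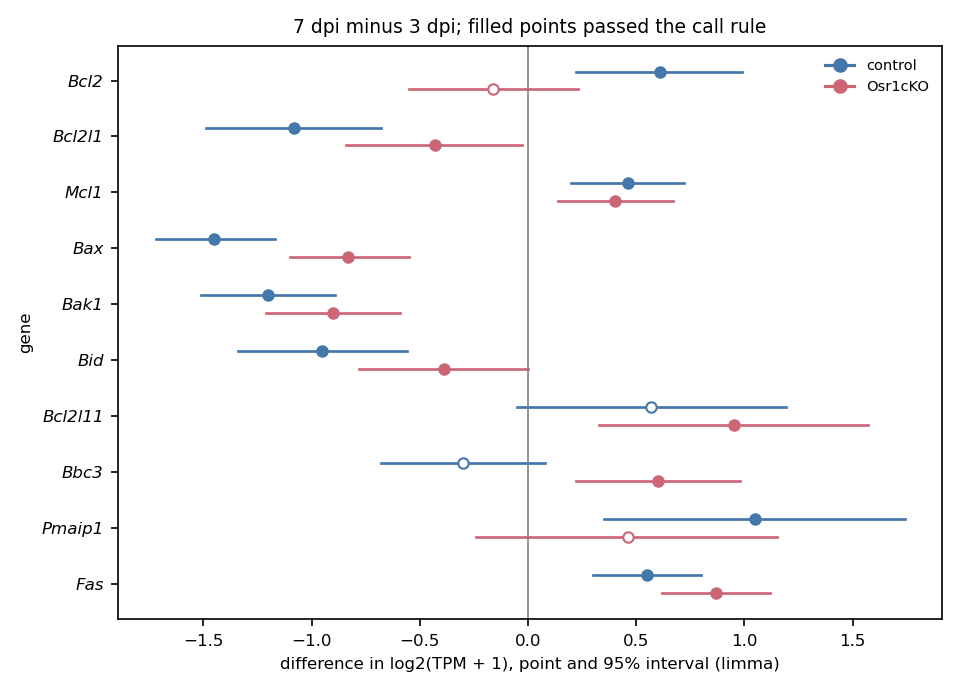
Difference of 7 dpi minus 3 dpi in log2(TPM + 1) (horizontal axis) for each gene (vertical axis) in control and in Osr1cKO, with the 95% interval from limma and filled points for calls. Bax, Bak1, Bid and Bcl2l1 lie left of 0 and Mcl1 and Fas right of 0 in both genotypes.

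The change over time was compared between the genotypes by a genotype by day interaction over all 8 libraries. No member passed at an adjusted p under 0.1, and neither did any other gene (0% of 17371). At an unadjusted p under 0.05, where 6.86% of all genes passed, there were 5 members. Bax, Bbc3, Bcl2l1 and Bid had positive terms, that is, a genotype difference that was less negative or more positive at 7 dpi, and Bcl2 had a negative one. Their adjusted p lay between 0.591 and 0.728 in limma.

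Bcl2, the founding anti-apoptotic member (chr1:106538178-106714274, minus strand, GRCm38), was measured at 2.61 and 2.0 TPM in control and at 2.74 and 2.70 in Osr1cKO at 3 dpi. On day 7 the level was at 3.41 and 3.86 TPM in control and at 2.12 and 2.49 in Osr1cKO. The control libraries at 7 dpi were thus the highest of all 8, and those of the genotypes did not overlap on that day. The genotype difference was -0.59 ± 0.15 (adjusted p = 0.291, limma) at 7 dpi and 0.17 ± 0.20 at 3 dpi. In limma-voom on the recovered fragments it was -0.79 ± 0.16 at 7 dpi (adjusted p = 0.0915), which passed. Between the days Bcl2 rose by 0.61 ± 0.16 in control (adjusted p = 0.0213, limma), a call lost without control replicate 2 of 7 dpi (0.55), and the value was -0.16 ± 0.16 in Osr1cKO. The interaction was -0.76 ± 0.23 (adjusted p = 0.633, limma).

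Bcl2l1, which encodes Bcl-xL, a guardian that restrains Bax and Bak1 (chr2:152780668-152831728, minus strand), had its highest levels in control at 3 dpi, at 37.9 and 25.3 TPM. Osr1cKO was at 17.3 and 16.7 TPM on that day. At 7 dpi control was at 12.7 TPM in each library and Osr1cKO at 12.1 and 12.3. The control libraries at 3 dpi differed from each other by more than all other 6 did among themselves, yet both lay above every other library. The genotype difference at 3 dpi was -0.84 ± 0.22 (adjusted p = 0.764, limma), a 1.79-fold lower level, and ranged from -1.13 to -0.57 when single libraries were left out, each time with the call kept. At 7 dpi it was -0.18 ± 0.11, with an interval from -0.45 to 0.08. The fall with time was -1.08 ± 0.17 in control (adjusted p = 0.00262, limma) and -0.43 ± 0.17 in Osr1cKO (adjusted p = 0.0824, limma). The second of these calls was lost under 7 of 15 alternative settings, among them each of the 4 in which an Osr1cKO library was left out (-0.48 to -0.40).

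Mcl1, a short-lived guardian whose protein is turned over by ubiquitin ligases (chr3:95658788-95663176, plus strand), made up 91.1% to 97.2% of the summed TPM of the 3 anti-apoptotic genes. Its levels at 3 dpi were 413 and 350 TPM in control and 369 and 403 in Osr1cKO, with overlap. At 7 dpi they were 456 and 488 TPM in control and 499 and 509 in Osr1cKO. The genotype difference was 0.01 ± 0.15 at 3 dpi, with an interval from -0.37 to 0.39. It was -0.04 ± 0.08 at 7 dpi, where the deposited TPM without rescaling gave 0.09. Mcl1 rose with time by 0.46 ± 0.11 in control (adjusted p = 0.0144, limma) and by 0.40 ± 0.11 in Osr1cKO (adjusted p = 0.0272, limma), the second a call lost without Osr1cKO replicate 1 of either day (0.34 and 0.39). As Bcl2l1 fell while Mcl1 rose, the share of Bcl2l1 in the anti-apoptotic sum was 8.36% and 6.71% in control at 3 dpi and between 2.34% and 2.69% in the 4 libraries at 7 dpi.

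Bax, the effector that moves from the cytosol to mitochondria (chr7:45461697-45466898, minus strand), had the widest range of group means of the 10 genes, 1.59 on the log2 scale. It read 159 and 131 TPM in control and 106 and 115 in Osr1cKO at 3 dpi. Levels at 7 dpi were 50.04 and 44.4 TPM in control and 62.5 and 59.8 in Osr1cKO. Osr1cKO thus lay below control at 3 dpi and above it at 7 dpi, without overlap on either day. The difference was -0.40 ± 0.14 (adjusted p = 0.782, limma) at 3 dpi and 0.23 ± 0.10 (adjusted p = 0.404, limma) at 7 dpi. The interaction was 0.62 ± 0.17 (adjusted p = 0.611, limma). With time Bax fell by 1.45 ± 0.12 in control (adjusted p = 0.000312, limma), a 2.73-fold lower level, and by 0.83 ± 0.12 in Osr1cKO (adjusted p = 0.00238, limma). The call at 3 dpi was lost under 5 of 15 alternative settings, among them leaving out control replicate 1 (-0.26), Osr1cKO replicate 1 (-0.36) or Osr1cKO replicate 2 (-0.43).

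Bax is a textbook target of p53, and the sequence around its start site is shown for that reason. In the RefSeq window from 250 bases before to 50 bases after the start (GRCm38.p6, minus strand), the only match to a p53 half-site among the members was found, from position -201 to -192 counted from the start base as 0 (chr7:45467070-45467119). An E-box, CACGTG, the site of basic helix-loop-helix factors, lay from -9 to -4 (chr7:45466882-45466927) and another further downstream. Coordinates are of the stretch shown, and capitals mark the match.
Bax p53 half-site: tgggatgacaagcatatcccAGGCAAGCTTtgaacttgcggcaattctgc
Bax E-box: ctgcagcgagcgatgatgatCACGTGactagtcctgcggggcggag
A p53 half-site was found on either strand in 8.36% and the E-box in 7.15% of 32851 promoter windows searched, and 9 of the 10 genes had a window. A match is a description of these letters only.

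Bak1, the effector that resides in the mitochondrial membrane (chr17:27019810-27029009, minus strand), was the more abundant of the 2 effectors, with 56.4% to 65.7% of their summed TPM. Its levels at 3 dpi, 206 and 182 TPM in control and 204 and 184 in Osr1cKO, overlapped fully. Levels at 7 dpi were 82.2 and 69.4 TPM in control and 107 and 96.9 in Osr1cKO, without overlap. The genotype difference was -0.02 ± 0.14 at 3 dpi, with an interval from -0.38 to 0.34, and 0.29 ± 0.12 at 7 dpi (adjusted p = 0.40, limma). Bak1 fell with time by 1.2 ± 0.13 in control (adjusted p = 0.000675, limma) and by 0.90 ± 0.13 in Osr1cKO (adjusted p = 0.0025, limma). No Bak1 window held any of the motifs searched.

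The ratio of Bax to Bcl2 TPM, a common summary of an effector against a guardian, was given as a description, with no test. It was 60.9 and 65.3 in the control libraries at 3 dpi and 38.8 and 42.5 in Osr1cKO. At 7 dpi it was 14.7 and 11.5 in control and 29.5 and 24.0 in Osr1cKO. The means were 63.1 ± 3.13 (SD, n = 2) and 40.7 ± 2.62 at 3 dpi and 13.1 ± 2.22 and 26.8 ± 3.83 at 7 dpi. The ratio was therefore lower in Osr1cKO at 3 dpi and higher at 7 dpi, with a gap between the genotypes larger than the spread between libraries on each day. Bax was lower and Bcl2 higher in the Osr1cKO libraries at 3 dpi, and Bax higher and Bcl2 lower at 7 dpi. Of these differences only that of Bax at 3 dpi was called in limma on log2(TPM + 1). That of Bcl2 at 3 dpi was 0.17 ± 0.20 and ranged from 0.03 to 0.3 when single libraries were left out. The ratio does not depend on how libraries are scaled, and it leaves out Bcl2l1 and Mcl1, the bulk of the anti-apoptotic transcripts. Bcl2 made only 0.414% to 0.764% of the anti-apoptotic sum. The direction at 3 dpi depends on the guardian chosen. Bcl2l1 differed by -0.84 on that day, more than Bax (-0.4), so a ratio to Bcl2l1 would be higher in Osr1cKO. Mcl1 differed by 0.01, so a ratio to Mcl1 would be lower, as with Bcl2. Summed over Bax and Bak1, effector transcripts were at 299 to 365 TPM at 3 dpi and at 114 to 170 TPM at 7 dpi, while the anti-apoptotic sum went from 377 to 453 TPM to 472 to 524 TPM.

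**Figure D4:**
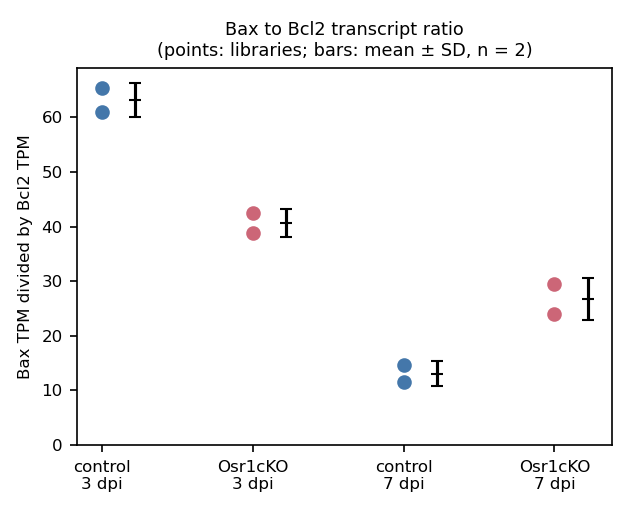
Bax TPM divided by Bcl2 TPM (vertical axis, from 0) in each of the 8 libraries (points) by genotype and day, with the mean ± SD of 2 libraries as bars. Control lies above Osr1cKO at 3 dpi (63.1 against 40.7) and below it at 7 dpi (13.1 against 26.8).

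Among the BH3-only genes, Bid, whose product carries the signal of death receptors to mitochondria (chr6:120891930-120916853, minus strand), was at 9.07 and 9.81 TPM in control at 3 dpi. It was at 5.74 and 5.14 TPM in Osr1cKO on that day. At 7 dpi control was at 4.31 and 3.65 TPM and Osr1cKO at 3.57 and 4.16. The control libraries at 3 dpi stood above the other 6, and the genotypes overlapped at 7 dpi. The difference was -0.71 ± 0.19 at 3 dpi (adjusted p = 0.764, limma) and -0.14 ± 0.16 at 7 dpi. The call at 3 dpi was lost without Osr1cKO replicate 1 (-0.80) or 2 (-0.62), which left fewer libraries to test. Bid fell with time by 0.95 ± 0.17 in control (adjusted p = 0.00393, limma) and by 0.39 ± 0.17 in Osr1cKO (adjusted p = 0.0998, limma), the second a call that 9 of 15 alternative settings removed, the loss of any Osr1cKO library included (-0.48 to -0.32). Bid shares 628 exonic bases, 17.7% of its length, with Bcl2l13 on the opposite strand. Whether strand was used in counting is not stated, and Bcl2l13, at 11.1 to 22.3 TPM, had a difference of 0.28 ± 0.19 at 3 dpi, of the opposite sign. With time it went in the same direction as Bid, from 20.7 and 15.4 to 13.8 and 11.1 TPM in control. In Osr1cKO it went from 21.8 and 22.3 to 16.9 and 15.2 TPM. The part of the overlap in the values of Bid was not tested.

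Bcl2l11, which encodes Bim, the BH3-only protein of growth factor withdrawal (chr2:128126038-128162547, plus strand), was at 25.0 and 13.9 TPM in control and 11.8 and 17.7 in Osr1cKO at 3 dpi. By 7 dpi it was at 25.6 TPM in each control library and at 29.2 and 27.9 in Osr1cKO. The libraries at 3 dpi were spread widely and overlapped, while all 4 at 7 dpi were above them. The genotype difference was -0.36 ± 0.33 at 3 dpi, which turned to 0.03 without control replicate 1, and 0.02 ± 0.09 at 7 dpi. Bcl2l11 rose with time by 0.95 ± 0.26 in Osr1cKO (adjusted p = 0.027, limma), a call lost without Osr1cKO replicate 1 of 3 dpi (0.67) or of 7 dpi (0.89), and the value in control was 0.57 ± 0.26 (adjusted p = 0.115, limma). The interaction was 0.37 ± 0.37, so a difference between the genotypes in this rise was not shown.

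Bbc3, which encodes Puma, a BH3-only target of p53 that binds every guardian (chr7:16308393-16318205, plus strand), was at 23.1 and 22.8 TPM in control at 3 dpi. Osr1cKO was at 15.9 and 13.8 TPM on that day. At 7 dpi the order was the other way round, at 19.3 and 14.3 TPM in control and 23.0 and 22.4 in Osr1cKO. The genotypes did not overlap on either day. The difference was -0.61 ± 0.16 at 3 dpi (adjusted p = 0.764, limma) and 0.29 ± 0.16 at 7 dpi (adjusted p = 0.498, limma). The interaction, 0.90 ± 0.23 (adjusted p = 0.591, limma), was the largest of the 10 genes. Without Osr1cKO replicate 2 the difference at 3 dpi was -0.49 and no longer called. Bbc3 rose with time by 0.60 ± 0.16 in Osr1cKO (adjusted p = 0.0244, limma), while control gave -0.30 ± 0.16 (adjusted p = 0.169, limma). The call in Osr1cKO was lost without replicate 2 of 3 dpi (0.48) or replicate 1 of 7 dpi (0.56).

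Bcl2l11 and Bbc3 are known targets of FoxO factors, which act when growth factor signalling is low, and their windows are shown because only these members held the FoxO letters TGTTTAC or their complement, which 3.65% of all windows did. The match lay from -227 to -221 in 1 of 2 windows of Bcl2l11 (chr2:128125791-128125837, plus strand). It lay from -167 to -161 in 1 of 3 windows of Bbc3 (chr7:16310074-16310120, plus strand). Sequences are from RefSeq (GRCm38.p6), with coordinates of the stretch shown and the match in capitals.
Bcl2l11 FoxO: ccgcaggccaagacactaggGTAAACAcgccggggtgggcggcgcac
Bbc3 FoxO: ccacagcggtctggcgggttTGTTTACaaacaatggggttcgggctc

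Pmaip1, which encodes Noxa, a BH3-only protein that binds Mcl1, was at 9.11 and 9.93 TPM in control and at 16 and 8.92 in Osr1cKO at 3 dpi. By 7 dpi it was at 20.95 and 16.7 TPM in control and 13.3 and 20.7 in Osr1cKO. The genotypes overlapped on both days, and the 2 Osr1cKO libraries differed from each other on both. The difference was 0.29 ± 0.31 at 3 dpi and -0.29 ± 0.21 at 7 dpi. Pmaip1 rose with time by 1.05 ± 0.29 in control (adjusted p = 0.0245, limma), a call lost without control replicate 1 of 7 dpi (0.89), and the value in Osr1cKO was 0.46 ± 0.29 (adjusted p = 0.249, limma).

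Fas, the receptor for Fas ligand (chr19:34290666-34327772, plus strand), was at 25.4 and 28.5 TPM in control and at 19.97 and 21.4 in Osr1cKO at 3 dpi. At 7 dpi it was at 36.3 and 35.7 TPM in control and at 36.9 and 39.6 in Osr1cKO. All 4 libraries at 7 dpi exceeded all 4 at 3 dpi. The genotype difference was -0.38 ± 0.14 at 3 dpi (adjusted p = 0.782, limma), and 9 of 15 alternative settings removed this call, among them leaving out control replicate 2 (-0.30), Osr1cKO replicate 1 (-0.35) or Osr1cKO replicate 2 (-0.40). At 7 dpi it was -0.05 ± 0.08, or 0.09 in the deposited TPM without rescaling. Fas rose with time by 0.55 ± 0.11 in control (adjusted p = 0.00585, limma) and by 0.87 ± 0.11 in Osr1cKO (adjusted p = 0.00149, limma), so that the receptor rose while Bid, which carries its signal to mitochondria, fell.

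Fas is a known target of interferon gamma, which acts through GAS sites of the form TTCNNNGAA, and the Fas window was the only one of the members to hold such letters, beside 8.30% of all windows. The match lay from -93 to -85 (chr19:34290546-34290594, plus strand, RefSeq, GRCm38.p6) and is in capitals, and the coordinates are of the stretch shown.
Fas GAS: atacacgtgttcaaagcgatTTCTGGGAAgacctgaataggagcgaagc
The same stretch held an E-box (cacgtg). Whether the lower interferon response genes in Osr1cKO at 3 dpi bear on Fas was not tested.

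Other genes of the pathway were described from lists chosen with earlier results of these data known, and their counts of calls stand beside the shares of all genes given above. Their counts at an unadjusted p under 0.05 at 7 dpi have no limit on the fold, and 12.6% of all genes passed in that way. Of 16 genes of p53 and its targets, a list that leaves out the members themselves, 7 were called lower and none higher in Osr1cKO at 3 dpi. The median was -0.42 and 15 of 16 differences were negative. The call with the smallest p was Gdf15, a secreted stress factor, at 29.1 and 38.7 TPM in control against 14.6 and 14.8 in Osr1cKO (-1.15 ± 0.19). Perp, a p53 effector in membranes that was under 1 TPM in every library, changed by -0.50 ± 0.14. Sesn2, a stress regulator, changed by -0.52 ± 0.17, and Cdkn1a, the cell cycle inhibitor p21, by -0.54 ± 0.19. With a filter of mean TPM of at least 1, which left out Perp, 6 of 15 genes were called lower. Trp53 itself differed by -0.01 ± 0.11. The 7 calls became 2 without control replicate 1, 2 without Osr1cKO replicate 1 and 1 without Osr1cKO replicate 2, and 0 at an adjusted p under 0.1, while the median stayed between -0.44 and -0.27 under all alternatives run.

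At 7 dpi the same list had no call at an adjusted p under 0.1 in limma, 4 of 16 at an unadjusted p under 0.05 (3 of them over 1.2-fold), a median of 0.14 and 15 of 16 positive differences. These stand beside the shifts of macrophage, endothelial and myofiber markers between the genotypes given above, and the part of those was not tested here either. There was 1 call without control replicate 1 of 7 dpi, and 1 in limma-voom. The exception among the signs was Btg2, an anti-proliferative gene, at -0.77 ± 0.17. Positive differences were 13 of 16 without control replicate 2 and 11 of 15 without Osr1cKO replicate 2, with medians of 0.06 and 0.10. In the deposited TPM the median of the list was 0.27, beside 0.11 over all genes. Cdkn1a differed by 0.10 ± 0.12. In the interaction 0 of 16 passed after adjustment and 9 of 16 had an unadjusted p under 0.05, beside 6.86% of all genes, with a median of 0.50; 1 gene passed after adjustment without control replicate 2 of 3 dpi. Bax and Bbc3, 2 further p53 targets, had the same pair of signs as most of this list, negative at 3 dpi and positive at 7 dpi. Fas was negative on both days, and Pmaip1 had the opposite pair. The list was chosen with earlier results of these data known, so the shared signs are a description only. With time, 10 of the 16 fell and 2 rose in control, among them Ccng1 (-1.13) and Phlda3 (-1.27), and 5 fell and 6 rose in Osr1cKO, where Sesn1 (0.97) and Eda2r (0.79) rose.

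**Figure D5:**
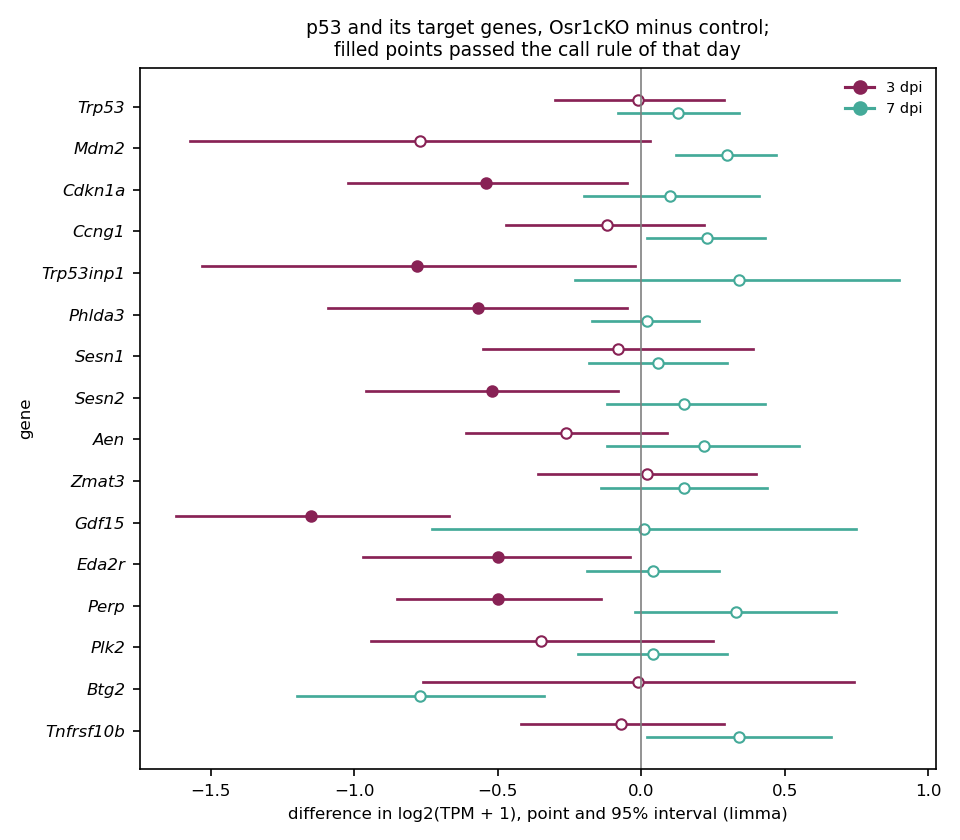
Difference of Osr1cKO minus control in log2(TPM + 1) (horizontal axis) for p53 and 15 target genes (vertical axis) at 3 and at 7 dpi, with the 95% interval from limma. Filled points are calls. Of 16 points, 15 lie left of 0 at 3 dpi (median -0.42) and 15 right of 0 at 7 dpi (median 0.14).

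Of the other Bcl2 family genes, 9 of 16 were expressed enough to be tested, and limma called none between the genotypes, with 0 at an unadjusted p under 0.05 at 3 dpi (median 0.05) and 2 at 7 dpi (median 0.07). The most abundant of them were Bnip3 and Bnip3l, mitochondrial proteins of hypoxia and mitophagy. Bnip3 was uneven at 3 dpi, at 91.5 and 33.3 TPM in control and 37.5 and 50.5 in Osr1cKO. With time Bmf, a BH3-only gene of cell detachment, rose by 1.37 ± 0.26 in control and 1.32 ± 0.26 in Osr1cKO, from at most 4.71 TPM to at least 7.46 TPM. Bnip3l also rose in both, by 0.51 and 0.58, and Bad, a BH3-only gene of survival signalling, fell in both, by 0.40 and 0.42. Bok, an effector-like member, fell by 0.65 in Osr1cKO, with -0.39 in control. In all, 2 rose and 1 fell in control, and 2 rose and 3 fell in Osr1cKO. Leaving out control replicate 2 of 3 dpi raised the calls to 4 at 3 dpi and to 5 over time in control, and without control replicate 1 there was 1 call at 3 dpi. There was also 1 at 7 dpi without control replicate 1 of that day, and calls over time in Osr1cKO were 3 without replicate 1 of 3 dpi or either library of 7 dpi.

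In the list of death receptors, ligands and adaptors, 17 of 18 genes were tested. Fas ligand (Fasl) was the untested one, at 0.0394 to 0.322 TPM, so that the receptor was present in these cells at 19.97 TPM or more with little transcript of its ligand. At 3 dpi 1 gene was called, Tnfsf10, the interferon-induced ligand TRAIL, at 6.62 and 6.11 TPM in control against 3.93 and 1.02 in Osr1cKO (-1.23 ± 0.45). At 7 dpi none was at an adjusted p under 0.1 in limma, and 5 had an unadjusted p under 0.05. Ripk3, the kinase of necroptosis, was at 78.0 and 66.4 TPM in control against 113 and 104 in Osr1cKO on that day (0.45 ± 0.11). With time 10 fell and 1 rose in control, and 6 fell and 2 rose in Osr1cKO, with medians of -0.66 and -0.26. The adaptor Tradd fell by 1.03 in control and likewise in Osr1cKO, and the decoy receptor Tnfrsf22 by 1.58 in control, whereas Ripk1, the kinase downstream of TNF receptors, rose by 0.86 and 0.55. The adaptor of Fas itself, Fadd, fell by 0.99 in Osr1cKO and went from 6.645 and 8.52 to 2.97 and 3.97 TPM in control. In Osr1cKO Tnfrsf22 went from 8.25 and 8.37 to 4.27 and 3.875 TPM. The call at 3 dpi was absent without control replicate 1 or Osr1cKO replicate 2, and there were 4 calls without control replicate 2 and 2 without Osr1cKO replicate 1. At 7 dpi 1 gene was called without control replicate 1, in the interaction 1 was without Osr1cKO replicate 1 of 3 dpi, and the 8 calls over time in Osr1cKO became 5 without replicate 1 of 3 dpi and 4 without replicate 2 of 7 dpi.

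Downstream of mitochondria, limma called none of 13 apoptosome and caspase genes between the genotypes, with 0 at an unadjusted p under 0.05 at 3 dpi and 4 at 7 dpi (3 of them over 1.2-fold), and limma-voom called 1 at 7 dpi. Leaving out control replicate 1 or 2 of 3 dpi, or control replicate 1 of 7 dpi, gave 1 call on that day. With time Apaf1, the scaffold of the apoptosome, rose by 0.61 in control and 0.41 in Osr1cKO, while genes for proteins that mitochondria release fell in both: cytochrome c (Cycs) by 1.09 and 0.89, Htra2 by 1.13 and 1.13, and Aifm1 by 0.89 and 0.81. In all, 1 rose and 5 fell in control, and 2 rose and 5 fell in Osr1cKO.

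Among 8 tested inhibitor of apoptosis genes, 3 rose and 1 fell with time in control, and 3 rose and 2 fell in Osr1cKO. Birc2 and Birc3, which act in TNF signalling, rose by 0.89 and 1.23 in control and by 0.96 and 0.78 in Osr1cKO. Birc5 (survivin), which also serves mitosis, fell by 2.74 and 2.14. Between the genotypes at 3 dpi 1 of 7 was called, Naip2, a sensor of bacterial proteins, which was under 1 TPM in every library (-0.45). That call was absent without control replicate 1 or either Osr1cKO library, and there were 4 calls without control replicate 2. At 7 dpi limma called 0 of 8, with 2 at an unadjusted p under 0.05, and there were 2 calls in limma-voom and 2 without control replicate 1. The 5 calls over time in Osr1cKO became 3 without replicate 2 of either day.

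Regulators upstream of the BH3-only genes changed mostly with time. All 8 genes of the list of FoxO factors and unfolded protein response regulators were called in control, 6 higher and 2 lower at 7 dpi, and 7 of 8 were in Osr1cKO, 6 higher and 1 lower. Foxo4 rose by 0.63 in control and 0.56 in Osr1cKO, Foxo1 by 0.81 in control and Foxo3 by 0.74 in Osr1cKO. In Osr1cKO Foxo1 went from 10.1 and 12.7 to 17.5 and 20.6 TPM. Foxo3 in control went from 64.5 and 45.3 to 69.3 and 68.1 TPM. Atf3, a stress response factor, rose by 1.94 and 2.04. Between the genotypes at 3 dpi 2 of 8 were lower: Ddit3 (CHOP), the pro-apoptotic factor of the unfolded protein response, at 54.2 and 50.02 TPM in control against 35.3 and 25.6 in Osr1cKO (-0.79 ± 0.20), and Trib3, its target (-0.92 ± 0.30). Without Osr1cKO replicate 2 this count was 0, and without control replicate 2 it was 1. The 8 calls over time in control became 5 without replicate 2 of 3 dpi and 3 without either library of 7 dpi, and the 7 in Osr1cKO became 3 without replicate 1 of 3 dpi and 4 without replicate 2 of 7 dpi. None was called at 7 dpi, where 0 of 8 had an unadjusted p under 0.05 in limma.

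Of 8 genes of Mcl1 turnover, March5, a mitochondrial ubiquitin ligase, was the only one called between the genotypes, at 3 dpi. It was at 218 and 166 TPM in control against 135 and 132 in Osr1cKO (-0.52 ± 0.17), and at 67.6 and 64.8 against 86.9 and 84.1 TPM at 7 dpi (0.23 ± 0.08, not called). March5 fell with time by 1.36 in control and 0.62 in Osr1cKO. Trib2, a pseudokinase scaffold of ubiquitin ligases, rose by 1.09 and 1.26. In each genotype 3 of the 8 rose and 1 fell with time. The call of March5 at 3 dpi was absent without control replicate 1 or either Osr1cKO library, the 4 calls over time in control became 2 without replicate 1 of 3 dpi or either library of 7 dpi, and without control replicate 2 of 3 dpi 1 gene passed in the interaction. At 7 dpi limma called 0 of 8, with 4 at an unadjusted p under 0.05 (2 of them over 1.2-fold).

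Among 10413 genes of at least 5 TPM, those whose centred levels over the 8 libraries lay nearest to each of the 3 widest-ranging members were found as a description. Bax was nearest to Map2k1, a kinase of the MAPK cascade (root mean square distance 0.081 on the log2 scale), then Mad2l2 and Tmem160. Map2k1 read 158 and 133 TPM in control and 115 and 105 in Osr1cKO at 3 dpi, and 53.3 and 48.8 against 62.5 and 58.9 at 7 dpi. Bak1 was nearest to the splicing factor Usp39 (0.052), then Srebf2 and Gtf2f2, and Bcl2l1 to Uaca (0.079), then Hpse and H2-T-ps.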

How the data were processed

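Stranded, paired-end libraries of polyadenylated RNA from GFP+ FAPs were aligned by the authors to mm10 with STAR, and DESeq2 served them for normalization. The authors deposited 1 table of TPM per library, calculated from normalized fragment counts. The counting program, its annotation and its use of strand are not given in the sources used here. Of 55385 entries per library, 109 further entries of 106 repeated symbols were left out. With exon lengths of GENCODE mouse release 21, between 98.6% and 98.9% of values up to 50 fragments lay within 0.02 of a whole number, which gave the recovered fragments. Genes with 10 fragments in 2 libraries and 15 over the libraries fitted were tested, and symbols without a length at a mean TPM of 1 or more.

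TPM was scaled by a mean of log ratios trimmed by 30% at each end, and log2(TPM + 1) was fitted with limma 3.58.1 in R 4.3.3 (lmFit, eBayes with trend). Each day was fitted on its 4 libraries, and the day comparisons and the interaction on all 8. The day comparisons share libraries with the genotype comparisons. The procedure was also run on simulated data with a fixed spread, where calls were scored by the adjusted threshold only. That run therefore cannot speak to the calls at 3 dpi, which used the unadjusted threshold. Other steps used Python 3.11.15, pandas 2.3.3, NumPy 2.4.6 and matplotlib 3.10.9.

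The members and gene lists were chosen with earlier results of these data known. All 10 members and Osr1 are named. From each list up to 4 genes of smallest p that passed were eligible, or else the 2 of highest mean TPM. Fasl, Bcl2l13 and the values of a list gene in further comparisons were added after their values were seen. Naip7 was not analysed here. Alternatives were other scalings, pseudocounts and filters, limma-voom, robust eBayes, a replicate block, other sets of libraries or thresholds, and leaving out each library.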

Additional observations from a re-analysis of the deposited data

How the results depend on the processing

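Of 10 genes, 5 were called between the genotypes at 3 dpi, and the count was 3 with a replicate block, 0 at an adjusted p under 0.1 and between 1 and 5 when single libraries were left out. At 7 dpi the count of 0 became 1 with limma-voom on recovered fragments and 1 at an unadjusted p under 0.05. Over time in Osr1cKO the 8 calls were between 3 and 6 with single libraries left out. In the interaction the count of 0 became 5 by the rule of 3 dpi. Signs turned for differences that were not called, of which Bcl2l11 (-0.36) and Pmaip1 (0.29) at 3 dpi exceeded 1.2-fold. In the deposited TPM, Mcl1 and Fas were at 0.09 each at 7 dpi and the interaction of Mcl1 at 0.07. In the fit of all 8 libraries Bak1 was at 0.00 at 3 dpi. With single libraries left out, the range at 3 dpi was -0.11 to 0.12 for Mcl1, -0.11 to 0.08 for Bak1, -0.77 to 0.03 for Bcl2l11 and -0.12 to 0.70 for Pmaip1. At 7 dpi Bcl2l11 ranged from -0.04 to 0.08, and the interaction of Mcl1 from -0.15 to 0.03. No other difference of a member changed sign under the alternatives run. The cause of these changes was not tested. The labels share replicate numbers, and the replicate deviations correlated between -0.151 and 0.074 over genes, which gave no sign of pairing. With a single deviation per group, whether libraries of the same number shared a preparation cannot be told. Counts for the gene lists under the same alternatives were added after seeing the data. With 2 libraries per group, differences of the size of the spread between libraries cannot be resolved. Depth limits Bcl2 and Bid most, and recovered fragments rest on gene lengths that may differ from those the authors used.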
